A study of Homo sapiens with 39 samples.

Results

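The proteasome genes described here are those whose symbol is PSMA, PSMB, PSMC, PSMD or PSME followed by a number. The rule reads the gene names of the guides and no measured value, though the group was proposed with earlier results of these data known. In the whole-genome guide library they number 43 of 19101 genes with at least 3 guides, with 172 guides between them, of which 171 had enough reads to be tested. The epigenetic guide library held 10 of them among 1115 genes, with 10 guides each: PSMA1, PSMA2, PSMA3, PSMB2, PSMB3, PSMC4, PSMD1, PSMD6, PSMD7 and PSMD11. All 43 symbols are current in RefSeq. Of the 43 genes, 31 encode subunits of the standard core and cap and are called constitutive below. The other 12 encode tissue-restricted or inducible subunits, assembly chaperones and separate activators.

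The counts come from pooled CRISPR knockout screens in A375, a human melanoma line that carries mutant BRAF, the kinase inhibited by the drug vemurafenib. All cells screened already lacked a subunit of Mediator, the complex that links transcription factors to RNA polymerase: either MED12, in its kinase module, or MED23, in its tail. MED12KO cells carried the whole-genome or the epigenetic library and were sampled at day 0, and at days 8 and 14 in vemurafenib at 2 µM or in DMSO, the vehicle. MED23KO cells carried the epigenetic library and were sampled at day 0, and at day 14 in vemurafenib at 1 µM or in DMSO. No screen of A375 cells with intact Mediator was analysed here, so every group shares the loss of a Mediator subunit, and drug dose differs along with the knockout. The labels do not say whether each knockout line is 1 clone, and guide counts do not measure the loss of MED12 or MED23 itself. Each of the 13 groups had 3 libraries of guide DNA amplified from genomic DNA. The labels number them as replicates without saying whether they were separate infections or cultures, so p-values measure the spread between these libraries, which may be technical.

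The proteasome is the protease that degrades proteins tagged with ubiquitin. Its barrel, the 20S core, has outer rings of alpha subunits that gate the entrance and inner rings of beta subunits, of which PSMB5, PSMB6 and PSMB7 cut peptide bonds. The 19S cap has a base, in which a ring of PSMC ATPases unfolds the substrate, and a lid, in which PSMD14 removes ubiquitin. Dividing cells cannot do without most of these subunits, and cancer cells are killed by drugs that block the barrel. In a pooled screen, guides against a gene that cells need become rarer as the culture grows.

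Libraries held 47766947 to 87591804 guide reads in the whole-genome screen, 16385695 to 20814734 in the epigenetic screen of MED12KO cells and 22846325 to 28994690 in that of MED23KO cells. The level of a gene is given as the geometric mean over its guides of CPM (reads scaled to a common library total, with TMM factors) plus 0.5, so 0.5 is the floor. The gene score is its log2, and changes in score understate losses of guides that start low. Guides were tested with edgeR's quasi-likelihood test and their ranks combined per gene by robust rank aggregation (written edgeR/RRA), and a gene was called at an adjusted p of 0.05 over all genes of the screen. Single guides drifted apart between replicate libraries of the whole-genome screen. At day 14 in DMSO 37 of the 172 proteasome guides (21.5%) differed by 16-fold or more between the 3 libraries, as did 21.7% of all guides against genes and 8.30% of control guides. The same spread was met by 0 proteasome guides at day 0. In the epigenetic screens it was met at day 14 in DMSO by 12 of 100 proteasome guides in MED12KO cells, with 6.10% of all guides against genes and 0.846% of control guides. In MED23KO cells it was met by 2 of 100 proteasome guides, 0.574% of all guides against genes and 0 control guides. Reads were PCR products without molecular identifiers, so read depth covers counting error only.

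Guides against constitutive subunits were already rare at day 0. In the whole-genome screen they made up 0.160% of the guides but only 0.0771% to 0.0782% of the reads of the 3 day-0 libraries. All 31 constitutive genes had a day-0 level below the median of all genes, 6.31 CPM, and their own median was 3.15 CPM. The lowest 10% of all genes (10.0% by count) held 21 of the 31. The other 12 members made up 0.0620% of the guides and 0.0697% to 0.0737% of the day-0 reads, with a median level of 9.52 CPM, and the lowest 10% held none of them. PSMA6, an alpha-ring subunit, had the lowest day-0 level of the 43 genes at 1.11 CPM, and PSMD9, an assembly chaperone, the highest at 12.2 CPM. Of the other 12, PSME3 and PSMD5 stood below the all-gene median. Counts of the guide library before infection were not analysed here, so how much of this difference arose before day 0 was not tested. Changes from day 0 therefore describe only what was lost after it, and low levels leave less room for a fall.

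In MED12KO cells that grew for 14 days in DMSO, the constitutive subunits lost more of their guides than other genes. Their median change in gene score from day 0 was -1.01, against -0.17 for the other 12 members and -0.22 for all genes. By class the median change was -0.74 for the alpha ring, -1.0 for non-catalytic and -1.04 for catalytic beta subunits, -0.53 for the ATPases, -1.40 for non-ATPase base subunits and -1.40 for the lid. The remaining classes stood at -0.17 for the inducible and thymic beta subunits, -0.23 for the assembly chaperones and -0.01 for the activators. The lowest 5% of all genes (5.0%, scores at or below -1.36) held 9 of 31 constitutive genes and 1 of the other 12, PSME3. Of single guides, 89 of 124 against constitutive genes (71.8%) and 18 of 47 against the other 12 (38.3%) had a log2 fold change below 0, where 41.8% of all guides against genes did. The 3 DMSO libraries all lay below the 3 day-0 libraries for 20 of 43 members, 19 of them constitutive, where this held for 19.9% of all genes.

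**Figure D1:**
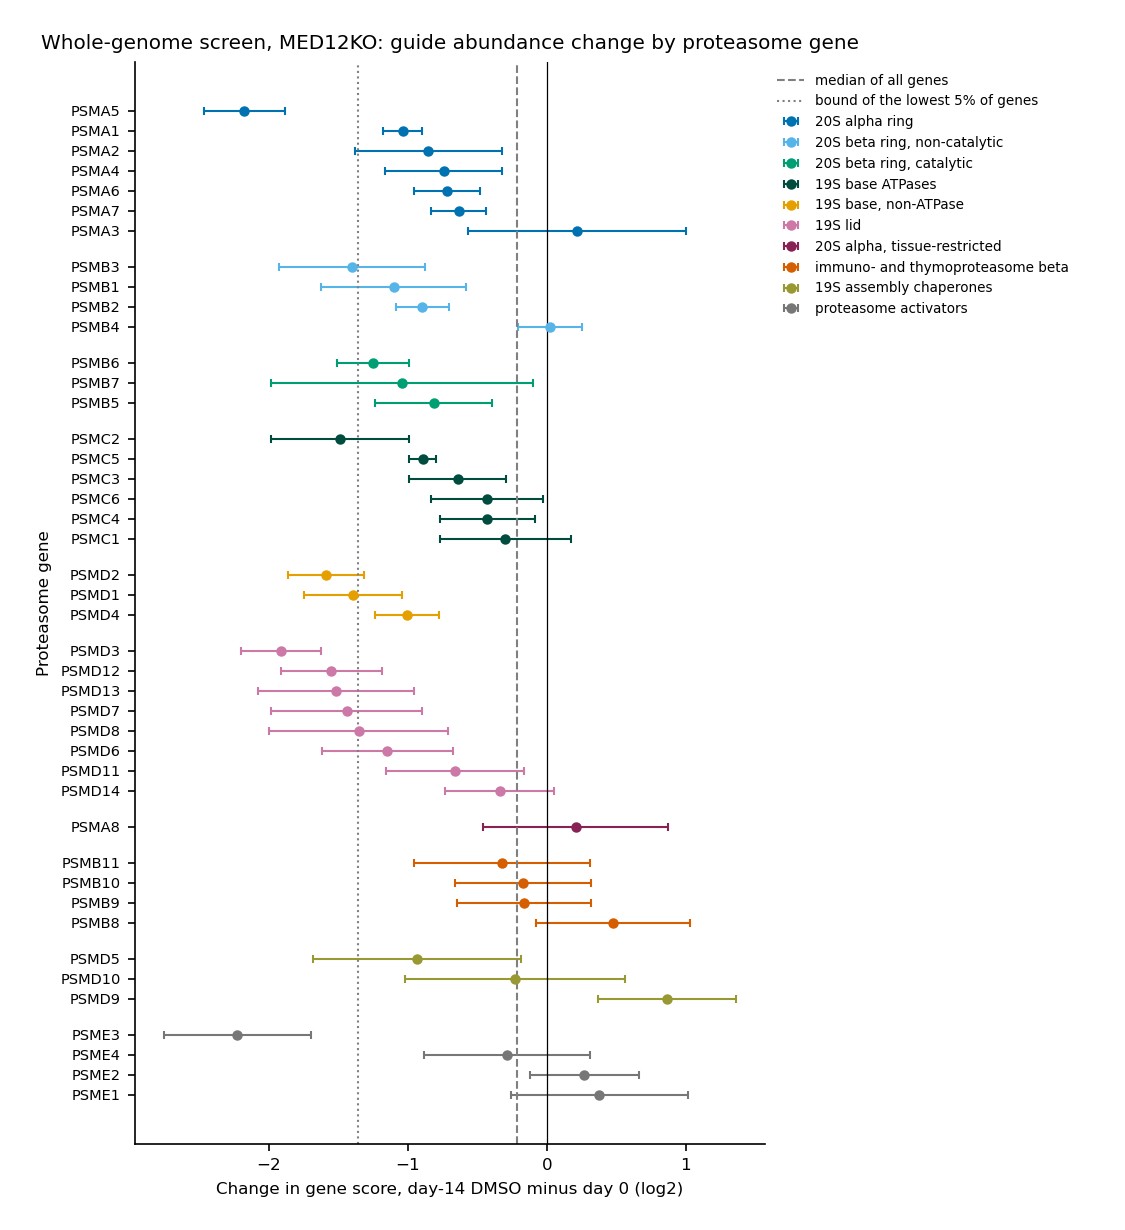
Change in gene score (log2, x axis) of each of the 43 proteasome genes between day-14 DMSO and day-0 libraries of MED12KO cells in the whole-genome screen, grouped by class, with bars for ± SE over 3 libraries per group. Constitutive classes lie mostly left of the all-gene median of -0.22, while the other classes lie on both sides of it. Among these, PSME3 is lowest at -2.23, PSMD5 also lies to the left and PSMD9 to the right.

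No proteasome gene was called at day 14 by edgeR/RRA, where 0.12% of all genes were called depleted. At an unadjusted edgeR/RRA p under 0.05 there were 11 of 43 members, and 7.7% of all genes. Other tests on the same counts called more. limma on gene scores, added after the data were seen, called 5 members depleted: PSMA5, PSMB6, PSMD2, PSMD3 and PSME3, with 3.84% of all genes called. The library numbers pair the samples in this screen, and limma with the number as a block called 23 members depleted, 22 of them constitutive, with 16.8% of all genes called. The edgeR/RRA test with the same block called 0. At day 8 edgeR/RRA called 2 members depleted, PSMA5 and PSMD3, where 0.236% of all genes were. Scaling on control guides in place of TMM moved the median of all genes by -0.58 at day 14 and by -0.37 at day 8. Relative to all genes, the median over the 43 members at day 14 was -0.60 with TMM and -0.50 with control guides.

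Among the alpha subunits PSMA5 had the most negative change. Its level was 0.589, 0.734 and 0.983 CPM in the day-14 DMSO libraries, against 4.23, 3.51 and 2.65 CPM at day 0. It was low already at day 8, with 0.958, 1.05 and 1.04 CPM in DMSO. Errors of score changes are SE over the 3 libraries of each group here and below. They leave out the pairing of libraries by number. The groups did not overlap, and the level was 4.53-fold lower at day 14 than at day 0 (score change -2.18 ± 0.29, edgeR/RRA adjusted p = 0.153, limma adjusted p = 0.000562). At day 8 PSMA5 fell by 1.75 ± 0.20 in score (edgeR/RRA adjusted p = 0.0356, or 0.0343 when blocked by library number). All 4 PSMA5 guides moved the same way, with log2 fold changes between -3.90 and -3.02 at day 14.

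PSMA3, another alpha subunit, showed the opposite extreme of the ring. It had 5.97, 17.2 and 2.70 CPM in the day-14 DMSO libraries and 4.89, 6.67 and 5.43 CPM at day 0. DMSO library 2 was high and library 3 low, so the groups overlapped (score change 0.22 ± 0.79, edgeR/RRA adjusted p = 0.648). Its guides disagreed. PSMA3_1 had 0, 3.05 and 0 CPM in the day-14 DMSO libraries, against 3.59, 7.75 and 3.64 CPM at day 0. PSMA3_2 had 55, 57.9 and 1.68 CPM there, against 2.79, 3.48 and 2.13 CPM at day 0. PSMA3_4 had 84.6, 85.0 and 22.5 CPM in day-14 DMSO, against 9.35, 11.1 and 19.3 CPM at day 0, so these guides stood high in DMSO libraries 1 and 2. PSMA7, a further alpha subunit, had 1.35, 1.73 and 1.12 CPM in day-14 DMSO, against 1.97, 2.36 and 2.10 CPM at day 0, without overlap (score change -0.63 ± 0.20, edgeR/RRA adjusted p = 0.583, limma with the block 0.0443). PSMA8, which replaces PSMA7 in testis, had 7.66, 32.2 and 9.02 CPM in day-14 DMSO and 10.9, 13.2 and 10.0 CPM at day 0. Those groups overlapped, and 0 of the 4 PSMA8 guides had a log2 fold change below 0 (score change 0.21 ± 0.66, edgeR/RRA adjusted p = 1).

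Of the non-catalytic beta subunits, PSMB3 had the lowest and PSMB4 the highest change. PSMB3 had 1.00, 2.19 and 3.47 CPM in the day-14 DMSO libraries and 4.93, 5.07 and 5.64 CPM at day 0, all 3 DMSO libraries below all 3 day-0 libraries (score change -1.40 ± 0.53, edgeR/RRA adjusted p = 0.99, limma with the block 0.00158). PSMB4 had 2.52, 1.95 and 2.30 CPM in day-14 DMSO and 2.87, 1.78 and 2.10 CPM at day 0, with full overlap (score change 0.02 ± 0.23). Its 4 guides split, with log2 fold changes of 4.49 and 4.48 for PSMB4_1 and PSMB4_4 and of -1.29 and -1.67 for PSMB4_2 and PSMB4_3.

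The 3 catalytic subunits differed in spread more than in size. PSMB5, the chymotrypsin-like site and the target of bortezomib, had 1.95, 1.09 and 2.83 CPM in day-14 DMSO and 3.12, 2.81 and 3.76 CPM at day 0. DMSO library 3 overlapped the day-0 range by a little (score change -0.82 ± 0.42, edgeR/RRA adjusted p = 1, limma with the block 0.0935). PSMB6, the caspase-like site, had 2.46, 1.60 and 1.96 CPM in day-14 DMSO and 3.81, 4.61 and 5.95 CPM at day 0, without overlap. Its level was 2.38-fold lower in DMSO (score change -1.25 ± 0.26, edgeR/RRA adjusted p = 1, limma adjusted p = 0.0295). PSMB7, the trypsin-like site, had 0.683, 0.631 and 4.35 CPM in day-14 DMSO and 1.94, 2.40 and 3.53 CPM at day 0. Library 3 was high on both days, and the groups overlapped (score change -1.04 ± 0.94, limma with the block adjusted p = 0.0352).

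The inducible beta subunits, which interferon brings in to replace the catalytic sites in the immunoproteasome, did not share this pattern. PSMB8 had 26.3, 7.25 and 18.2 CPM in day-14 DMSO and 10.0, 11.0 and 11.6 CPM at day 0. PSMB9 had 4.66, 11.0 and 3.83 CPM in day-14 DMSO and 5.88, 7.66 and 6.16 CPM at day 0. PSMB10, with 3 guides tested, had 10.7, 4.57 and 13.6 CPM in day-14 DMSO and 10.9, 8.67 and 10.1 CPM at day 0. In each of these the DMSO libraries lay on both sides of the day-0 range, and the score changes were 0.48 ± 0.56, -0.16 ± 0.48 and -0.17 ± 0.49. PSMB11, the thymic subunit, had a score change of -0.32 ± 0.63. Of these 4 genes, 0 were called by edgeR/RRA or by limma with or without the block, and none had an unadjusted edgeR/RRA p under 0.05.

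In the ATPase ring of the 19S base the changes were smaller by class median in this screen. PSMC2 had 1.35, 1.57 and 3.85 CPM in day-14 DMSO and 5.92, 6.61 and 4.64 CPM at day 0, without overlap (score change -1.49 ± 0.49, edgeR/RRA adjusted p = 1, limma with the block 0.0197). PSMC1 had 4.36, 2.25 and 1.71 CPM in day-14 DMSO and 4.07, 2.26 and 3.39 CPM at day 0, with overlap (score change -0.30 ± 0.47). Scores of the other 4 ATPases lay between -0.89 and -0.43. PSMC6 and PSMC4 started at day-0 levels of 1.65 and 2.30 CPM, among the lowest of all genes, as did PSMD7 and PSMD2 (2.18 and 2.27 CPM) outside this ring. The epigenetic library held 1 ATPase, PSMC4. In MED23KO cells it changed by -2.82, against -2.59, -1.55 and -1.12 for the 3 lid subunits there. In MED12KO cells it changed by -0.78, within the lid range of -1.43 to -0.54.

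The non-ATPase base subunits moved more evenly. PSMD2, a scaffold of the base, had 0.522, 0.891 and 0.916 CPM in day-14 DMSO, against 2.38, 2.39 and 2.04 CPM at day 0. Its libraries did not overlap and its level was 3.01-fold lower in DMSO (score change -1.59 ± 0.27, edgeR/RRA adjusted p = 0.405, limma adjusted p = 0.00604). PSMD4, a receptor for ubiquitin chains, had 1.92, 2.19 and 1.38 CPM in day-14 DMSO and 3.54, 4.22 and 3.15 CPM at day 0, also without overlap (score change -1.01 ± 0.23, edgeR/RRA adjusted p = 0.591, limma with the block 0.00335). PSMD1, the other large scaffold, had a score change of -1.40 ± 0.35. Of the 12 guides against these 3 genes, 11 had a log2 fold change below 0.

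In the lid the changes ran from -1.91 to -0.34. PSMD3, a structural lid subunit, had 0.981, 0.720 and 0.570 CPM in day-14 DMSO, against 2.56, 3.56 and 2.37 CPM at day 0. It was 3.77-fold lower without overlap (score change -1.91 ± 0.29, edgeR/RRA adjusted p = 0.236, limma adjusted p = 0.00378). At day 8, with 1.08, 1.11 and 0.661 CPM in DMSO, PSMD3 fell by 1.59 ± 0.30 in score (edgeR/RRA adjusted p = 0.0127), a call not kept with the replicate block (edgeR/RRA adjusted p = 0.0841). PSMD14, the deubiquitinase of the lid, had 3.40, 2.15 and 1.36 CPM in day-14 DMSO and 2.46, 2.64 and 3.11 CPM at day 0, with overlap (score change -0.34 ± 0.39). PSMD12, PSMD13, PSMD7, PSMD8 and PSMD6 had score changes of -1.55 ± 0.36, -1.52 ± 0.56, -1.44 ± 0.54, -1.35 ± 0.64 and -1.15 ± 0.47.

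Outside the particle PSME3 stood apart. It encodes the nuclear activator of the 20S core and had 1.66, 0.509 and 0.669 CPM in day-14 DMSO, against 4.63, 3.48 and 3.6 CPM at day 0. The level was 4.69-fold lower without overlap (score change -2.23 ± 0.53, edgeR/RRA adjusted p = 0.303, limma adjusted p = 0.044). At day 8 its score change was -1.79 ± 0.41 (edgeR/RRA adjusted p = 0.153, or 0.0225 when blocked by library number, a call). PSME1, which pairs with PSME2 in the interferon-induced activator, had 5.82, 5.32 and 20.8 CPM in day-14 DMSO and 6.49, 6.63 and 6.84 CPM at day 0, with DMSO library 3 high (score change 0.38 ± 0.64). PSMD5 and PSMD9, chaperones that help the base assemble, went in different directions. PSMD5 had 0.815, 4.59 and 2.88 CPM in day-14 DMSO and 3.98, 3.96 and 4.77 CPM at day 0 (score change -0.93 ± 0.75), with overlap. PSMD9 had 20.9, 12.8 and 41.0 CPM in day-14 DMSO and 14.1, 10.9 and 11.8 CPM at day 0 (score change 0.87 ± 0.50, edgeR/RRA adjusted p = 0.825), with overlap and with 0 of 4 guides below 0.

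Guides against the same gene often disagreed in the whole-genome screen. At day 14 in DMSO, 6 of 43 members had all their guides below 0, all of them constitutive, 35 had guides on both sides and 2, PSMA8 and PSMD9, had none below 0. At day 8 in DMSO the median score change from day 0 was -0.70 for constitutive genes, 0.09 for the other 12 and -0.08 for all genes, and all 31 constitutive genes were below 0. limma with the block called 10 members depleted by then, 9 of them constitutive, with 4.05% of all genes called. From day 8 to day 14 in DMSO the median score change was -0.25 for constitutive genes, -0.04 for the other 12 and -0.12 for all genes. edgeR/RRA called 0 members in that interval, where 0.0262% of all genes were called depleted, with 6 members at an unadjusted p under 0.05 (6.89% of all genes) and 0 called by limma.

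No difference between vemurafenib and DMSO was detected for the proteasome genes in the whole-genome screen of MED12KO cells. The median over constitutive genes of the change in score, vemurafenib minus DMSO, was 0.06 at day 8 and -0.02 at day 14. edgeR/RRA called 0 of 43 members at day 8, where 0.0105% of all genes were called enriched and 0.0157% depleted, and 0 at day 14, where it called 0.0% of all genes either way. There were 3 members of 43 at an unadjusted p under 0.05 on each day, near the share of all genes, 5.61% at day 8 and 5.25% at day 14, and limma called 0 on both. The 3 vemurafenib libraries all lay above the 3 DMSO libraries for 1 member at day 8, PSMA5, where 0.848% of genes did so, and below for 0 (0.633% of genes). At day 14 the groups overlapped for all 43 members, while 1.53% of genes lay wholly below and 0.838% wholly above. By number, 9 members at day 8 and 4 at day 14 were higher in vemurafenib in 3 of 3 pairs (15.7% and 11.5% of genes). Lower in 3 of 3 pairs were 3 and 6 (12.1% and 16.7% of genes). With the block, limma called 0.0% of all genes at day 8, and 0.0105% enriched and 0.00524% depleted at day 14. Set against day 0 by library, the median over constitutive genes was -0.90, -0.86 and -1.02 in the day-14 vemurafenib libraries and -0.88, -0.84 and -1.0 in the DMSO libraries. Both arms share their day-0 libraries. For day-14 vemurafenib against day 0, edgeR/RRA called 0 members (0.0157% of genes were called depleted), with 7 at an unadjusted p under 0.05 (6.72% of genes). limma called 6 there with 5.62% of genes, and 22 with the block with 22.7% of genes.

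**Figure D2:**
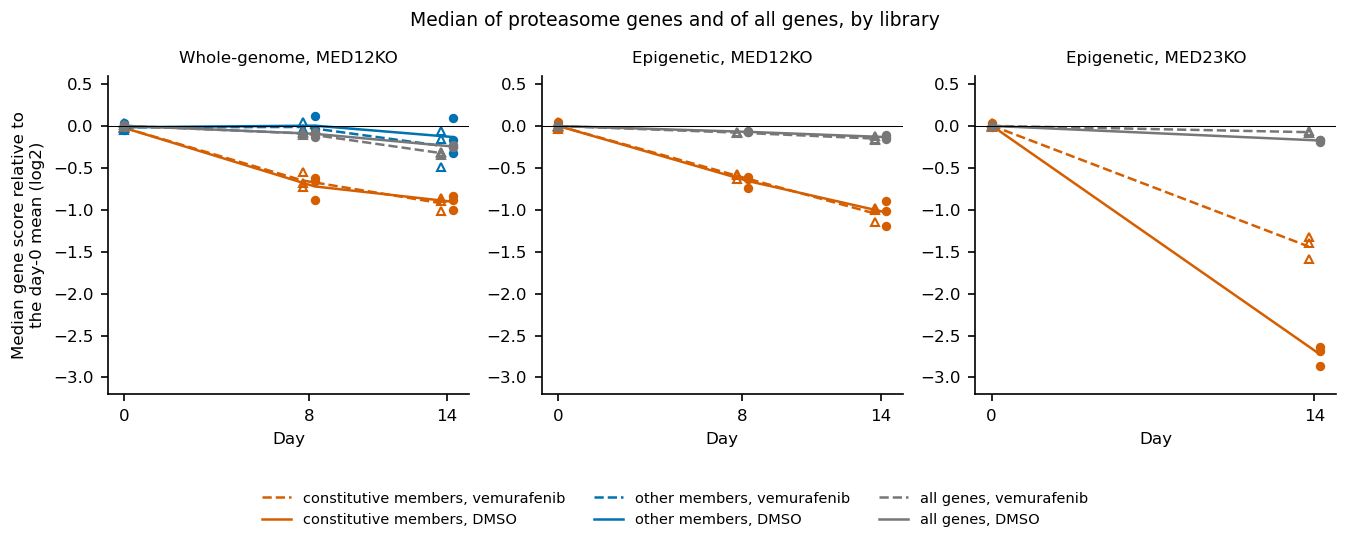
Median gene score relative to the day-0 mean (log2, y axis) over constitutive proteasome genes, other proteasome genes and all genes, by day, with 1 point per library, triangles and dashed lines for vemurafenib and circles and solid lines for DMSO. Both arms run together in MED12KO cells, and at day 14 in MED23KO cells the 3 vemurafenib libraries lie above the 3 DMSO libraries.

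The members with the lowest unadjusted p for vemurafenib were these. PSMD10, an assembly chaperone also known as gankyrin, had 22.4, 4.54 and 20.8 CPM in the day-14 vemurafenib libraries and 12.1, 2.66 and 14.9 CPM in DMSO. Each vemurafenib library was above the DMSO library of the same number, by 0.89, 0.77 and 0.48 in score. Library 2 was low in both arms, and the groups overlapped (score change 0.71 ± 1.09 without the pairing, edgeR/RRA adjusted p = 0.781). PSMB3 had 0.958, 1.14 and 1.76 CPM in vemurafenib and 1.00, 2.19 and 3.47 CPM in DMSO at day 14, lower in 3 of 3 numbered pairs but with overlap (score change -0.66 ± 0.58, edgeR/RRA adjusted p = 0.872). PSMD6, a lid subunit, had 2.35, 1.80 and 2.51 CPM in vemurafenib and 2.45, 0.856 and 1.73 CPM in DMSO (score change 0.51 ± 0.47, edgeR/RRA adjusted p = 0.939). At day 8 PSMA6 had 0.912, 0.720 and 0.559 CPM in vemurafenib and 0.813, 0.778 and 0.50 CPM in DMSO, close to the floor in both (score change 0.07 ± 0.30, edgeR/RRA adjusted p = 0.398). PSMD2 and PSMA4 were the other members under 0.05 at day 8, with score changes of 0.11 ± 0.27 and -0.24 ± 0.53. The drug effect at day 14 minus that at day 8 called 0 members and 0.0% of genes by edgeR/RRA, with 4 members at an unadjusted p under 0.05 (5.33% of genes) and 0 called by limma.

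The epigenetic screen of MED12KO cells, with 10 guides per gene, gave a steadier loss during growth. It also had other guides and more reads per guide than the whole-genome screen. Its day-0 levels were higher, with a median over constitutive genes of 34.6 CPM against 3.15 CPM. Which of these made the loss steadier was not tested. All 10 members had lower levels in each of the 3 DMSO libraries than in any day-0 library, at day 8 and at day 14, where 34.3% and 36.4% of all genes did so. The median score change was -0.67 at day 8 and -1.03 at day 14, against -0.05 and -0.09 for all genes. At day 14 it was -1.06 over the 5 core subunits and -0.78 over the 5 cap subunits, ranges that overlap. Control-guide scaling moved the median of all genes by -0.41 at day 14 and left that of the members at -0.94 relative to all genes, as with TMM.

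PSMA3 had the most negative change in that screen, with 8.93, 8.03 and 5.18 CPM in day-14 DMSO, against 21.3, 21.0 and 23.7 CPM at day 0 (score change -1.61 ± 0.25, edgeR/RRA adjusted p = 0.0819, or 0.0458 when blocked by library number). PSMA2 had 15.9, 9.63 and 6.53 CPM in day-14 DMSO and 28.6, 27.3 and 29.3 CPM at day 0 (score change -1.5 ± 0.37, edgeR/RRA adjusted p = 0.334). PSMD7, a structural subunit next to the deubiquitinase in the lid, had 6.49, 6.18 and 12.6 CPM in day-14 DMSO, against 21.0, 20.9 and 22.5 CPM at day 0 (score change -1.43 ± 0.33, edgeR/RRA adjusted p = 0.505). None of these groups overlapped. PSMD1, the base scaffold, had 3.59, 3.32 and 5.33 CPM in day-14 DMSO, against 10.8, 11.1 and 10.0 CPM at day 0, the lowest starting level of the 10 (score change -1.41 ± 0.22). PSMB3 was the member called at day 14 by edgeR/RRA, where 2.42% of all genes were called depleted. It had 11.3, 23.3 and 20.7 CPM in day-14 DMSO, against 33.9, 35.7 and 36.5 CPM at day 0, with library 1 the lowest (score change -1.01 ± 0.32, edgeR/RRA adjusted p = 0.0486). With the replicate block edgeR/RRA called 3, PSMA3, PSMB2 and PSMB3. PSMB3 was not called without day-0 library 2, DMSO library 2 or DMSO library 3.

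The smallest changes in the same screen were those of PSMD11 and PSMD6, both lid subunits. PSMD11 had 22.6, 29.6 and 19.7 CPM in day-14 DMSO and 32.8, 33.9 and 36.0 CPM at day 0 (score change -0.54 ± 0.18). PSMD6 had 23.5, 22.4 and 22.2 CPM there, against 34.3, 33.5 and 37.0 CPM at day 0 (score change -0.62 ± 0.05). PSMA1, PSMB2 and PSMC4 lay between, at -0.81 ± 0.18, -1.06 ± 0.35 and -0.78 ± 0.36. limma on gene scores, added after the data were seen, called 8 of the 10 with 26.9% of all genes, and 10 with the replicate block with 35.5% of all genes. At day 8 edgeR/RRA called PSMA2, PSMB2 and PSMD7 depleted (adjusted p = 0.0397, 0.0449 and 0.0487), where 4.93% of all genes were called. With the block limma called 7 with 23.8% of all genes. Under edgeR/RRA with the block PSMA2 was no longer called (edgeR/RRA adjusted p = 0.071) and PSMA3 was (0.0269). The count at day 8 was 1 without day-0 library 3 or DMSO library 2 and 0 without DMSO library 3.

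Against this loss, the same 10 genes stood by median near their DMSO levels under vemurafenib in MED12KO cells. At day 14 the median change, vemurafenib minus DMSO, was 0.05, and scores ran from -0.15 ± 0.70 for PSMC4 to 0.61 ± 0.46 for PSMD7. PSMC4 had 10.8, 42.1 and 14.5 CPM in vemurafenib and 15.8, 34.3 and 16.8 CPM in DMSO, with library 2 high in both arms. PSMD7 had 9.44, 10.0 and 18.9 CPM in vemurafenib and 6.49, 6.18 and 12.6 CPM in DMSO, higher in 3 of 3 numbered pairs. Its paired differences were 0.54, 0.70 and 0.58 in score (limma with the block adjusted p = 0.0748). That made 1 of 10 members higher in 3 of 3 pairs at day 14 (16.6% of genes), with 0 lower (15.5% of genes). Groups overlapped for all 10 genes at both days, where 3.05% and 3.68% of genes lay wholly below and 3.5% and 3.23% wholly above at days 8 and 14. edgeR/RRA called 0 at day 8, where 1.08% of genes were called enriched and 0.628% depleted. It called 0 at day 14 too (0.897% and 0.538% of genes). No member reached an unadjusted p of 0.05 on either day (9.6% and 7.17% of genes did at days 8 and 14), and limma called 0, with 0.0897% of genes called enriched at day 8 and 1.08% at day 14. For day-14 vemurafenib against day 0 edgeR/RRA called 0 of the 10, with 1 at an unadjusted p under 0.05 (13.5% of genes) and 0.987% of genes called depleted. limma called 6 with 27.1% of genes, and 9 with the block with 37.2%. Reads on the 10 genes made up 0.369% ± 0.0329 of the vemurafenib libraries and 0.396% ± 0.0121 of the DMSO libraries at day 14 (SD, n = 3).

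In MED23KO cells the same guides were lost further. All 10 members lay lower in the 3 day-14 DMSO libraries than in any day-0 library, where 48.7% of all genes did. The median score change was -2.73, against -0.18 for all genes. It was -3.21 over the 5 core subunits and -2.59 over the 5 cap subunits. Their ranges overlapped, at -3.65 to -1.37 and -3.01 to -1.12. edgeR/RRA called 5 members depleted, where 12.6% of all genes were called: PSMA2, PSMA3, PSMB3, PSMC4 and PSMD1. limma called all 10, with 43.5% of all genes. Of the 100 guides, 87 had a log2 fold change below 0 and 68 were called depleted one by one, where 50.6% and 23.8% of all guides against genes were. With control guides as the scale the all-gene median moved by -1.01 and the median of the 10 became -3.69, so relative to all genes it was -2.50, and -2.55 with TMM.

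PSMB3 fell most. It had 4.57, 5.02 and 5.02 CPM in day-14 DMSO, against 59.9, 59.5 and 64.1 CPM at day 0, a 12.6-fold lower level (score change -3.65 ± 0.06, edgeR/RRA adjusted p = 0.00134). The alpha subunits PSMA3 and PSMA2 followed. PSMA3 had 4.07, 3.89 and 5.86 CPM in day-14 DMSO and 42.9, 44.1 and 42.0 CPM at day 0 (score change -3.25 ± 0.19, edgeR/RRA adjusted p = 0.00281). PSMA2 had 4.72, 6.06 and 6.05 CPM there, against 51.5, 51.3 and 51.9 CPM at day 0 (score change -3.21 ± 0.12, edgeR/RRA adjusted p = 0.00211). In the cap, PSMD1 had 4.96, 3.69 and 7.95 CPM in day-14 DMSO and 41.7, 44.1 and 41.1 CPM at day 0 (score change -3.01 ± 0.32, edgeR/RRA adjusted p = 0.00835). The ATPase PSMC4 had 9.66, 7.69 and 7.17 CPM in day-14 DMSO and 57.1, 59.4 and 54.9 CPM at day 0 (score change -2.82 ± 0.13, edgeR/RRA adjusted p = 0.00723).

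**Figure D3:**
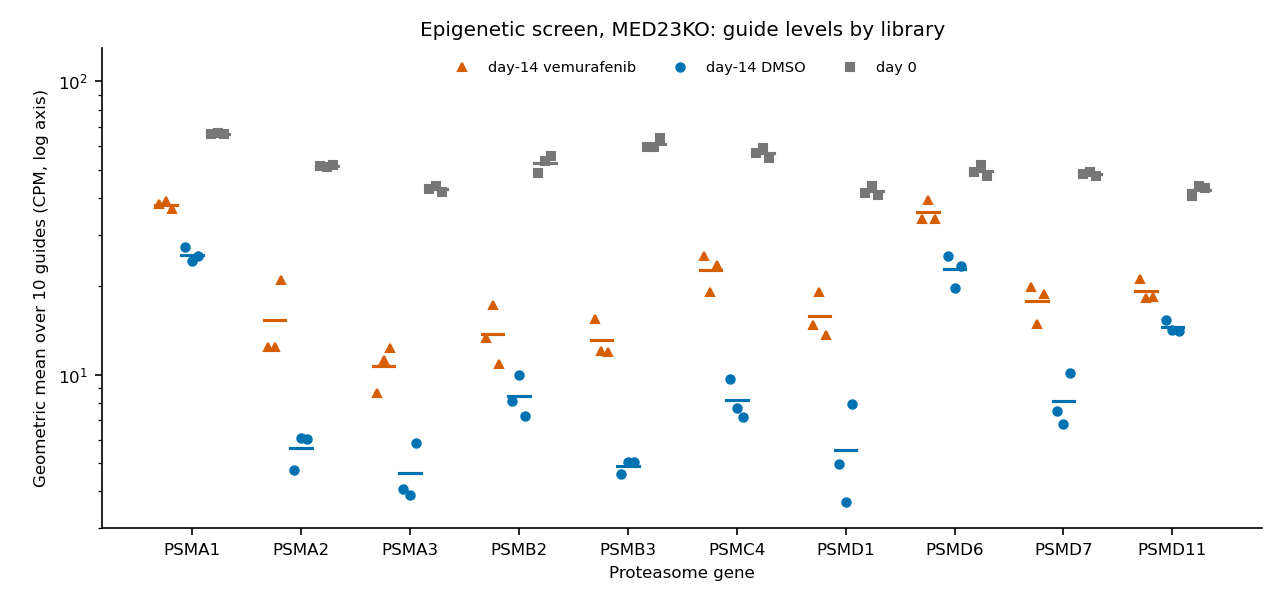
Level of each of the 10 proteasome genes (geometric mean over 10 guides, CPM, log axis) in each library of MED23KO cells, with triangles for day-14 vemurafenib, circles for day-14 DMSO, squares for day 0 and bars for the mean of 3 libraries. For all 10 genes the vemurafenib libraries lie above the DMSO libraries and below the day-0 libraries.

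The other 5 genes also lay far below day 0 but were not called by edgeR/RRA. PSMB2, a core beta subunit, had 8.15, 10.0 and 7.26 CPM in day-14 DMSO and 48.8, 53.5 and 55.5 CPM at day 0 (score change -2.65 ± 0.15, edgeR/RRA adjusted p = 0.103). PSMD7 had 7.53, 6.80 and 10.1 CPM there and 48.2, 49.0 and 47.7 CPM at day 0 (score change -2.59 ± 0.17, edgeR/RRA adjusted p = 0.127). PSMD11 had 15.4, 14.2 and 14.1 CPM in day-14 DMSO and 40.5, 43.9 and 43.3 CPM at day 0 (score change -1.55 ± 0.05, edgeR/RRA adjusted p = 0.681). For PSMA1 and PSMD6 the guides formed separate sets. PSMA1 had 27.2, 24.3 and 25.3 CPM in day-14 DMSO and 66.3, 66.6 and 66.1 CPM at day 0 (score change -1.37 ± 0.05). PSMD6 had 25.5, 19.7 and 23.5 CPM in day-14 DMSO and 49.1, 51.8 and 47.6 CPM at day 0 (score change -1.12 ± 0.11).

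Single guides show that split. PSMA1_7 had 0.211, 0.411 and 2.04 CPM in day-14 DMSO of MED23KO cells, against 40.6, 42.1 and 38.8 CPM at day 0. PSMA1_6, aimed at the same gene, had 294, 308 and 248 CPM there, against 169, 158 and 146 CPM at day 0. The guides PSMA1_1, PSMA1_2, PSMA1_7 and PSMA1_9 had log2 fold changes of -5.13, -4.40, -5.50 and -1.71, while the other 6 lay between -0.09 and 0.85. In MED12KO cells PSMA1_2 and PSMA1_7 were the lowest, at -4.23 and -3.64, and both were among the guides that fell in MED23KO cells. For PSMD6, 5 guides lay between -2.92 and -2.23 and 5 between -0.15 and 0.70 in MED23KO cells. All 10 guides were below 0 for PSMA3, PSMD1, PSMD7 and PSMD11. Whether the guides that did not move cut their target was not tested.

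**Figure D4:**
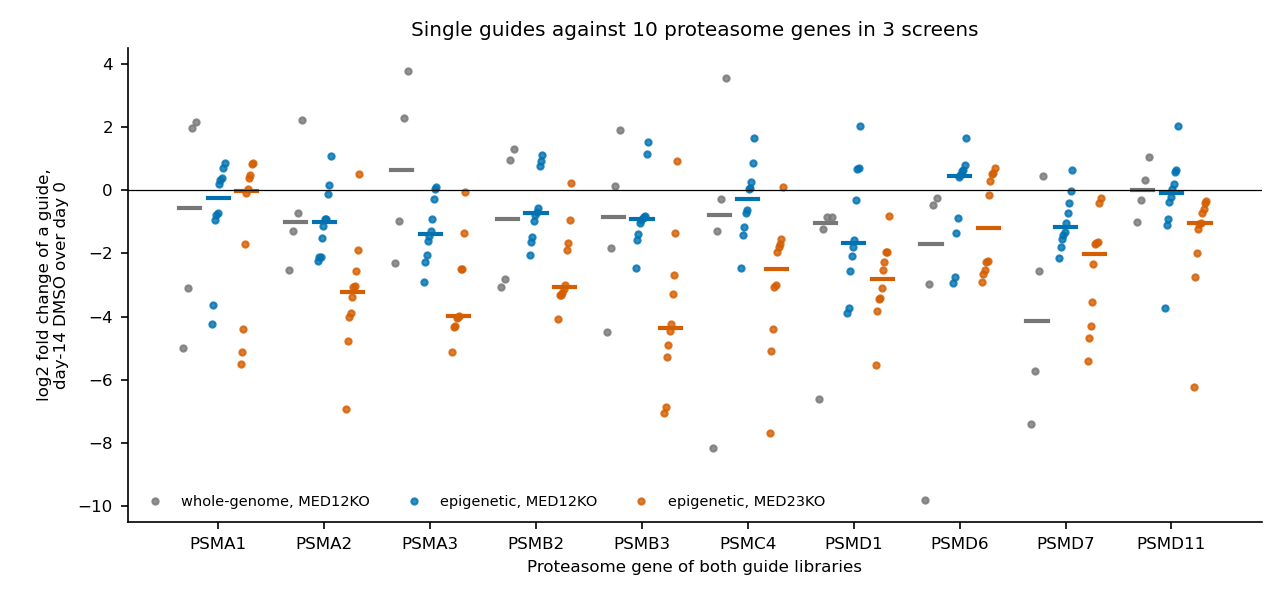
Log2 fold change of single guides (y axis), day-14 DMSO over day 0, against the 10 proteasome genes held by both guide libraries, with 1 point per guide, 1 colour per screen and bars for the median. The medians of MED23KO cells sit lower than those of MED12KO cells with the same guides for most genes, and the lowest points are guides near 0 reads, whose fitted value depends on the prior count.

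Under vemurafenib the loss in MED23KO cells was smaller than in DMSO. All 10 members had higher levels in each vemurafenib library than in any DMSO library at day 14, where 35.8% of all genes did. The median change in score, vemurafenib minus DMSO, was 1.19, against 0.16 for all genes, and ran from 0.40 for PSMD11 to 1.58 for PSMD1. edgeR/RRA called PSMA2, PSMB3 and PSMC4 enriched, where 7.8% of all genes were. limma called all 10 with 33.7% of all genes. Of the 100 guides, 7 lay below 0 where 40.7% of all guides did, and 18 were called enriched one by one where 7.98% were. The number of calls depended on the libraries used: edgeR/RRA called 0 members without DMSO library 2, 1 without vemurafenib library 1 or 3, and 5 without DMSO library 3. Over these and the other libraries left out, the median log2 fold change of the guides stayed above 0, at 1.27 to 1.78 for PSMA2, 1.27 to 1.92 for PSMB3 and 1.02 to 1.37 for PSMC4.

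PSMC4 had 25.5, 19.1 and 23.6 CPM in vemurafenib, against 9.66, 7.69 and 7.17 CPM in DMSO (score change 1.48 ± 0.18, a 2.78-fold higher level, edgeR/RRA adjusted p = 0.0171). PSMB3 had 15.4, 12.0 and 11.9 CPM in vemurafenib, against 4.57, 5.02 and 5.02 CPM in DMSO (score change 1.42 ± 0.13, edgeR/RRA adjusted p = 0.0336). PSMA2 had 12.4, 12.5 and 21.1 CPM in vemurafenib, library 3 the highest, against 4.72, 6.06 and 6.05 CPM in DMSO (score change 1.41 ± 0.28, edgeR/RRA adjusted p = 0.0306). None of these reached its day-0 level. PSMD1 had 14.8, 19.2 and 13.6 CPM in vemurafenib and 4.96, 3.69 and 7.95 CPM in DMSO, the largest change of the 10 but not called by edgeR/RRA (score change 1.58 ± 0.35, adjusted p = 0.137, limma adjusted p = 0.000128). Against day 0 the vemurafenib libraries stood at a median score of -1.44, with all 10 members wholly below day 0 where 38.8% of genes were. PSMA2, PSMA3, PSMB3 and PSMC4 were called depleted there by edgeR/RRA (adjusted p = 0.0148, 0.00754, 0.00184 and 0.0203), where 10.2% of genes were called. That comparison shares its libraries with the other 2 in this screen.

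The share of raw reads moved the other way. The 10 genes held 0.227% ± 0.0437 of all reads in the MED23KO vemurafenib libraries, 0.314% ± 0.0125 in DMSO and 0.773% ± 0.0123 at day 0 (SD, n = 3). A single guide took 6.61% to 15.2% of the reads in the vemurafenib libraries and 0.0817% to 0.114% in the DMSO libraries, and TMM factors were 0.514 to 0.699 in vemurafenib and 1.24 to 1.25 in DMSO. Scaled on control guides, the median change of the 10 genes was 1.34 with 10 of 10 above 0, and that of all genes 0.37. Guides with 0 reads numbered 0 to 1 in the vemurafenib libraries and 35 to 59 in DMSO. Their part in the higher levels under vemurafenib was not tested.

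Both knockouts carried the same guides, so their changes can be set against each other in 1 fit. Each knockout was a screen of its own, however, and dose differs for vemurafenib. For growth in DMSO to day 14 the difference, MED12KO minus MED23KO, was above 0 for all 10, that is, less negative in MED12KO cells, with a median of 1.53 against 0.06 for all genes. PSMB3 differed by 2.58 ± 0.33 and PSMC4 by 1.96 ± 0.38 (edgeR/RRA adjusted p = 0.00173 and 0.00698), 2 calls where 3.95% of all genes were called. limma called 8 members with 17.2% of all genes. For vemurafenib against DMSO the difference was below 0 for all 10, with a median of -0.64 against 0.00 for all genes. PSMB3 differed by -1.29 ± 0.48 and PSMA2 by -1.25 ± 0.51 (edgeR/RRA adjusted p = 0.0176 and 0.0474), where 3.14% of all genes were called. limma called 3 members with 9.42% of genes. Of the 12 ways of leaving out 1 library, 10 gave 0 or 1 call for vemurafenib. Both differences use the same DMSO libraries. Control-guide scaling moved the all-gene median by 0.70 for growth and by -0.42 for vemurafenib, and the members' medians relative to it were then 1.43 and -0.56.

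**Figure D5:**
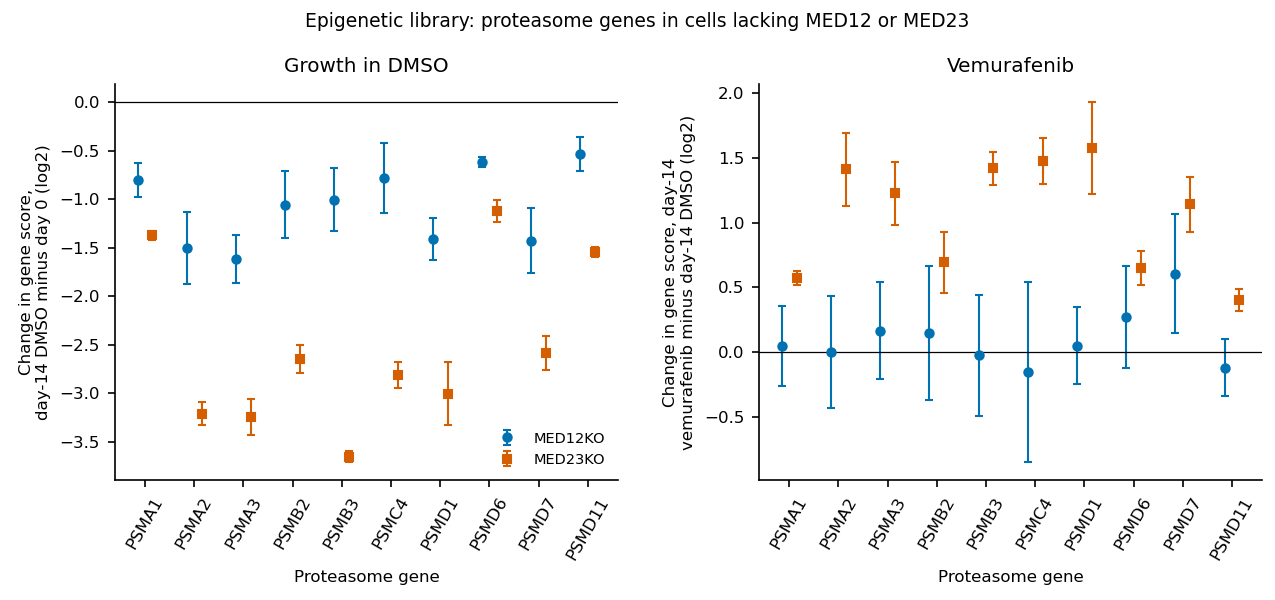
Change in gene score (log2, y axis) of the 10 proteasome genes of the epigenetic library in MED12KO (circles) and MED23KO (squares) cells, for day-14 DMSO minus day 0 on the left and day-14 vemurafenib minus day-14 DMSO on the right, with bars for ± SE over 3 libraries per group. MED23KO points lie lower on the left and higher on the right for all 10 genes.

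The starting points of these 2 screens were not alike. Levels here come from TMM over the libraries of both screens together, so those of MED12KO cells differ from the ones given above for that screen alone. At day 0 all 10 genes had lower levels in each MED12KO library than in any MED23KO library, where 53.5% of all genes did. The median difference in score, MED12KO minus MED23KO, was -0.89, against -0.16 for all genes. PSMD1 had 9.77, 10.0 and 9.06 CPM in MED12KO cells and 41.7, 44.4 and 41.3 CPM in MED23KO cells at day 0, a difference of -2.14 ± 0.05 that placed it in the lowest 0.269% of genes. PSMD7 had 19.0, 18.9 and 20.2 CPM in MED12KO cells and 48.2, 49.3 and 47.9 CPM in MED23KO cells (-1.33 ± 0.03). PSMD11 had the smallest difference, at -0.47 ± 0.05. As a share of day-0 reads the 10 genes held 0.511% to 0.526% in MED12KO cells and 0.763% to 0.787% in MED23KO cells, while their guides were 0.819% of the library. The time from infection to day 0 is not given in the sources used here, so how far an earlier loss in MED12KO cells enters the differences in growth was not tested.

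Taken over all 10 shared genes, the 2 guide libraries did not rank them alike in MED12KO cells. Across these genes the change at day 14 in DMSO had a Pearson r of -0.10 and a Spearman rho of 0.02 between the whole-genome and the epigenetic screen, which use different guides. Between MED12KO and MED23KO cells with the same guides r was 0.71 and rho 0.62. These values describe 10 genes that share libraries and are given without a test. PSMA3 was highest of the 10 in the whole-genome screen, where its guides disagreed, and lowest in the MED12KO epigenetic screen. It weighs on r and rho between those screens, which were not calculated without it. PSMD7 was low in all 3 screens, at -1.44, -1.43 and -2.59 in the whole-genome, MED12KO epigenetic and MED23KO screens. So were PSMD1, at -1.40, -1.41 and -3.01, and PSMB3, at -1.40, -1.01 and -3.65. PSMA3 stood at 0.22, -1.61 and -3.25.

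Of 31 further genes of the pathway, covering assembly factors, cap-associated proteins, transcriptional control and upstream ubiquitin handling, all were measured in the whole-genome screen. edgeR/RRA called 0 of them in any comparison there, where it called at most 0.236% of all genes in 1 direction. Their median change at day 14 in DMSO was -0.43, against -0.22 for all genes, and the lowest 5% of genes held 7. These were PSMG3 (-2.28) and PSMG2 (-1.78), which help alpha rings assemble, SEM1 (-1.99), a small lid subunit, ADRM1 (-1.60), a ubiquitin receptor, TXNL1 (-1.60), a thioredoxin bound to the cap, and VCP (-1.87) and its cofactor NPLOC4 (-1.36), which extract ubiquitinated proteins. Of the other assembly factors on the list, AKIRIN2 changed by -1.06, POMP by -0.31, PSMG4 by -0.21 and PSMG1 by -0.11. Of the other genes listed with VCP, FAF2 changed by -0.43, UFD1 by -0.34 and UBXN1 by -0.10. The epigenetic library held 5 of the 31. In MED23KO cells VCP fell by 3.08 in score to day 14 in DMSO (edgeR/RRA adjusted p = 0.00487), where 12.6% of genes were called depleted. NFE2L2, which switches on stress-response genes, rose by 0.40 (edgeR/RRA adjusted p = 0.0245), where 5.56% of genes were called enriched. None of the 5 was called for vemurafenib against DMSO in either knockout. At day 14 that comparison called 7.8% of genes enriched and 2.96% depleted in MED23KO cells, and 0.897% and 0.538% in MED12KO cells.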

How the data were processed

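Guide counts from 39 libraries were analysed, in 3 deposited tables of raw counts per guide, which the authors made from sequencing reads. bcl2fastq, HISAT2 and HTSeq are named per the submitters' processing notes, and the sources used here give neither settings nor versions. All columns matched a label (0 did not). Guide names less their trailing number gave the gene. Guides were tested with edgeR 4.0.16 (R 4.3.3) after filterByExpr (minimum count 10, minimum total 15) and TMM, with 1 mean per group and all libraries of a table in the fit, and combined per gene by robust rank aggregation (alpha 0.25, at least 3 guides). The p was 2-sided and adjusted over all genes by Benjamini-Hochberg, with a threshold of 0.05. MED12KO minus MED23KO was fitted jointly on day-0 and day-14 libraries from the epigenetic screens. Gene scores are means over guides of log2(CPM + 0.5). The steps were tested on simulated data.

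Same-numbered libraries deviated together in both MED12KO screens (correlations of 0.332 to 0.919), so the numbers pair them, while the numbers of the MED23KO DMSO libraries do not pair them. Different-numbered correlations in the MED12KO screens were all below 0, which is not separate evidence within groups of 3 libraries. Alternatives were DESeq2 1.42.0, scaling on control guides, no filter, a replicate block, summed guides, only the compared groups, and each library left out. limma 3.58.1 on gene scores, with and without the block, was added after the data were seen. Members and lists were chosen with earlier results of these data known. Every member could be named. Values per library are given for the members with the lowest and highest day-14 growth change in each class, for catalytic and replacement subunits, for members called or lowest in p under vemurafenib, and for members of the epigenetic library. Guide and protein sequences were not used here.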

Additional observations from a re-analysis of the deposited data

Results flagged for a closer look

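For 3 proteasome genes the effect differed between MED12KO and MED23KO cells in a test of the difference itself. For growth in DMSO to day 14, MED12KO minus MED23KO, PSMB3 differed by 2.58 in gene score and PSMC4 by 1.96 (edgeR/RRA adjusted p = 0.00173 and 0.00698). PSMB3 passed in 20 of 20 alternatives (edgeR/RRA, DESeq2 or limma adjusted p of 7.37e-07 to 0.0371) and PSMC4 in 18 of 20. For vemurafenib against DMSO at day 14, PSMB3 differed by -1.29 and PSMA2 by -1.25 (edgeR/RRA adjusted p = 0.0176 and 0.0474). Each passed in 8 of 20 alternatives. The dose was 2 µM in MED12KO and 1 µM in MED23KO cells, so dose and knockout cannot be told apart for vemurafenib. Each knockout was a screen of its own, so screen and knockout cannot be told apart in either difference. At day 0 PSMB3 and PSMC4 already differed by -0.95 and -0.82 in score, lower in MED12KO cells without overlap, where 53.5% of genes did so. How far this enters the growth differences was not tested.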

How the results depend on the processing

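Counts of called members moved by over 1.5 times as follows. Control-guide scaling gave 1 (2 with TMM) for whole-genome growth to day 8, 0 (3) and 0 (1) for growth to days 8 and 14 in the MED12KO epigenetic screen, 2 (5) for growth and 1 (4) for vemurafenib against day 0 in MED23KO cells, and 0 (2) for the vemurafenib difference between knockouts. Fitting only the compared groups gave 1 for whole-genome growth to day 8, 1 (0) for whole-genome vemurafenib against day 0, and 1 and 0 for MED12KO epigenetic growth to days 8 and 14. Summed guides gave 0 for whole-genome growth to day 8, 0 and 0 for MED12KO epigenetic growth, 1 (0) for vemurafenib against day 0 there, 8, 7 (3) and 7 for growth, vemurafenib against DMSO and vemurafenib against day 0 in MED23KO cells, and 0 for the vemurafenib difference. Summed guides also reversed the direction of PSMC4 for vemurafenib against day 0 in MED23KO cells, to a log2 fold change of 0.037. That gene was called depleted by edgeR/RRA (score change -1.34) and passed in 12 of 14 alternatives. DESeq2 gave 1 for whole-genome growth to day 8, 7 for MED23KO vemurafenib against day 0, and 1 for the vemurafenib difference. The cause of these moves was not tested.

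limma gave 5 (0), 6 (0), 8, 6 (0), 10, 10, 10 and 8 (2) for whole-genome growth to day 14 and vemurafenib against day 0, MED12KO epigenetic growth to day 14 and vemurafenib against day 0, the 3 MED23KO comparisons (growth, vemurafenib against DMSO, vemurafenib against day 0) and the growth difference. In that order it called 3.84%, 5.62%, 26.9%, 27.1%, 43.5%, 33.7%, 33.9% and 17.2% of all genes in the same direction. With the replicate block limma gave 10, 23, 22, 7, 10 and 9 for the MED12KO comparisons with day 0 (whole-genome, then epigenetic), 10 for each MED23KO comparison, and 4 and 8 for the vemurafenib and growth differences. The shares of all genes were 4.05%, 16.8%, 22.7%, 23.8%, 35.5% and 37.2% for MED12KO cells. They were 43.4%, 34.1% and 33.6% for MED23KO cells, and 14.2% and 21.4% for the differences. edgeR/RRA with the replicate block gave 3 for MED12KO epigenetic growth to day 14 and 5 for MED23KO vemurafenib against DMSO, and changed no other count by over 1.5 times. In MED23KO cells day-0 and vemurafenib libraries of 1 number deviated together (0.30 to 0.32), but DMSO libraries 1 and 2 did not with theirs (-0.19 to -0.15), library 3 did (0.34 with day 0, 0.30 with vemurafenib), and differently numbered ones reached 0.34 with day 0 and 0.32 with vemurafenib. The DMSO numbers 1 and 2 may therefore not match those of the other groups, which the labels do not settle, and blocked values that use these libraries, the differences between knockouts included, rest on that numbering.

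Leaving out 1 library gave 0 to 2 for whole-genome growth to day 8, 0 to 2 and 0 to 1 for MED12KO epigenetic growth to days 8 and 14, 0 to 5 for MED23KO vemurafenib against DMSO, and 0 to 2 and 1 to 2 for the vemurafenib and growth differences. In whole-genome growth to day 8 the count was 0 without DMSO library 1 and 1 without day-0 library 1 or 2 or DMSO library 3. The vemurafenib difference kept 2 calls only without MED12KO vemurafenib library 2 or MED23KO DMSO library 3, and the growth difference had 1 without MED12KO DMSO library 2. Whole-genome guides at under 1 CPM per library limit what a further fall can show.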
